A study of Mus musculus with 18 samples.

Results

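4 genes were followed across the brain samples: Phldb2 and Synm, which encode proteins that anchor the cytoskeleton, and Stip1 and Yod1, which encode a co-chaperone and a deubiquitinase of protein quality control. They were taken by symbol from the study's table of 51 named genes and joined by feature number to the array intensities, so that each gene was measured by 1 feature among 12439. All 4 accessions had that symbol in RefSeq (mouse, GRCm38.p6).

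Cells hold their shape through networks of actin, microtubules and intermediate filaments that must be tied to the membrane and to each other. Phldb2, also called LL5beta, binds phosphoinositides and helps to capture microtubule ends at the cell cortex, while synemin, the product of Synm, links intermediate filaments to other cytoskeletal proteins and in brain is found in astrocytes among other cells. Protein quality control folds or removes damaged proteins: Stip1, also called Hop, passes client proteins between the chaperones Hsp70 and Hsp90, and Yod1 removes ubiquitin from proteins handled by the ATPase p97.

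Brain RNA came from male BALB/cOlaHsd mice that were 8 weeks old at the start and were gavaged every day for 20 days, with standard chow and water freely available to all. Daily gavage held 30 mg of flour in PCS and POS, from conventionally and organically grown potatoes under storage conditions, and as much in PC and PO, from conventionally and organically grown potatoes. The ADI group received 9 pesticides together, each at its acceptable daily intake, and the Ctr group received water. Each mouse was hybridised to its own Cy3-labelled 1-colour Agilent array, and 15 of 18 arrays were used: 3 each for PC, ADI and Ctr, and 2 each for PCS, POS and PO.

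In all 12439 features the column of PO replicate 2 was the average of 2 other columns, PO replicate 3 and PCS replicate 1, and the third columns of PCS and POS ran against every array used (r from -0.188 to -0.155 on the log2 scale, across features). POS replicate 3 is also described with a later day, 27, than the other mice. These 3 columns were left out. The 4 arrays of PCS and POS were the brightest, with a 75th percentile of 1531 to 1995.5 against 838.5 to 1079 on the other 11, so stored potatoes and a joint handling of these arrays cannot be told apart. Of the arrays used, POS replicate 2 stood apart, correlating with the others at r = 0.833 to 0.855, and changes that moved by over 1.5 times without it are given both ways. Each array was brought to the same 75th percentile, 16 was used as a floor, and changes are differences of mean log2 values with the standard error (SE) of 1 limma fit over all 15 arrays. In a whole brain, fewer cells of a type and less RNA per cell cannot be told apart. None of 32 brain cell type markers carried a name in the table, so the tissue label was not checked.

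Synm, Stip1 and Yod1 lay higher in the brains of mice fed stored potatoes than in those fed potatoes without storage, and their promoters are shown because these 3 genes ran in the same direction there. The stretches are the 250 bases before each RefSeq start, from build GRCm38.p6, read 5′ to 3′ along the gene's strand. The Synm stretch lies at chr7:67759743-67759992 on the minus strand, that of Stip1 at chr19:7040027-7040276 on the minus strand, and that of Yod1 at chr1:130717077-130717326 on the plus strand. Capitals mark every match, on either strand, to CCAAT, to TATAAA or to GGGCGG, the letters of the CCAAT box, the TATA box and the GC box.
Synm: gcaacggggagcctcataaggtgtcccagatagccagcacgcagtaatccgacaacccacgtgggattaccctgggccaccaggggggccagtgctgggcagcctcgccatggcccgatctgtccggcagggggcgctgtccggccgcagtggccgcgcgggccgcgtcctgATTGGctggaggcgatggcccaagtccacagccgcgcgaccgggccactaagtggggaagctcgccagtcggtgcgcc
Stip1: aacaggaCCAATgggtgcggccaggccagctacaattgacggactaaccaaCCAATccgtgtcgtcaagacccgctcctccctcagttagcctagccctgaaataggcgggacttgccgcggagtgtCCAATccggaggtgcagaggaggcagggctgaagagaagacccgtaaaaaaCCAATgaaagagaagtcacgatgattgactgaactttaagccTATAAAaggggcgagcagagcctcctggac
Yod1: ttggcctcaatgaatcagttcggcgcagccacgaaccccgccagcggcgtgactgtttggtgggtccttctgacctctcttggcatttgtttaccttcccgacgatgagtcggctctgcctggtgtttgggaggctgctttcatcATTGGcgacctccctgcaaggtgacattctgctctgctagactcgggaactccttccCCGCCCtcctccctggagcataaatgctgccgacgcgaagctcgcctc

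The Stip1 stretch held 4 CCAAT matches and 1 TATAAA match, 30 bases before the start. The Yod1 stretch held 1 CCAAT and 1 GGGCGG match, and the Synm stretch 1 CCAAT match. No base lay in more than 1 match. Of all 32851 promoter stretches of this length, 33.8% held CCAAT, 12.4% TATAAA and 32.7% GGGCGG, so the shared CCAAT letters are common. TTCNNGAA and GAANNTTC, cores of the element bound by heat shock factors, occur in 7.17% and 6.69% of the stretches and were in none of these 3. The G and C content was 70.0% for Synm, 54.4% for Stip1 and 58.8% for Yod1, against a median of 52.4% over all stretches.

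Phldb2 showed a steady level on 14 of the 15 arrays and a single very low one. Its scaled intensity was 1175 and 1157 in the PCS mice and 1261 and 1550 in the POS mice. It was 1368, 1073 and 1222 in the PC mice, 1227 and 1131 in the PO mice, and 1253, 1056 and 1060 in the ADI mice. In the controls it was 1258 and 1043 in replicates 1 and 2, while replicate 3 had a deposited intensity of 4 and was set to 16. Control replicate 1 lay inside the range of the treated mice, replicate 2 lay just below the lowest of them, an ADI mouse at 1056, and replicate 3 lay far below every other mouse.

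On that control array only 3 of 12439 features were at least 8-fold below every other array, Phldb2 among them. The 100 features nearest to Phldb2 by number had a median log2 difference of -0.13 from the control mean there, so the low value was not shared by the features around it. The files give no flag for a failed spot, and whether this mouse or this spot was low was not tested.

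With all 3 controls the log2 change of Phldb2 over water was 2.08 ± 1.34 (SE) in PCS, 2.34 ± 1.34 in POS, 2.14 ± 1.20 in PC, 2.09 ± 1.34 in PO and 2.02 ± 1.20 in ADI. None passed a threshold of 0.05 (limma, Benjamini-Hochberg adjusted p 0.821 in PCS, 0.266 in POS and 1.00 in the others). These 5 comparisons share the same controls. Without control replicate 3 the changes were 0.03 ± 0.19 (SE) in PCS, 0.29 ± 0.19 in POS, 0.08 ± 0.17 in PC, 0.04 ± 0.19 in PO and -0.03 ± 0.17 in ADI. The 95% interval was then -0.39 to 0.44 in PCS, -0.13 to 0.71 in POS and -0.42 to 0.35 in ADI, and none passed (adjusted p 0.368 in POS and 1.00 in the others). With the floor at 1 in place of 16 the POS value was 2.98, and at 64 it was 1.67, so the size of the difference also rested on the floor.

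**Figure D1:**
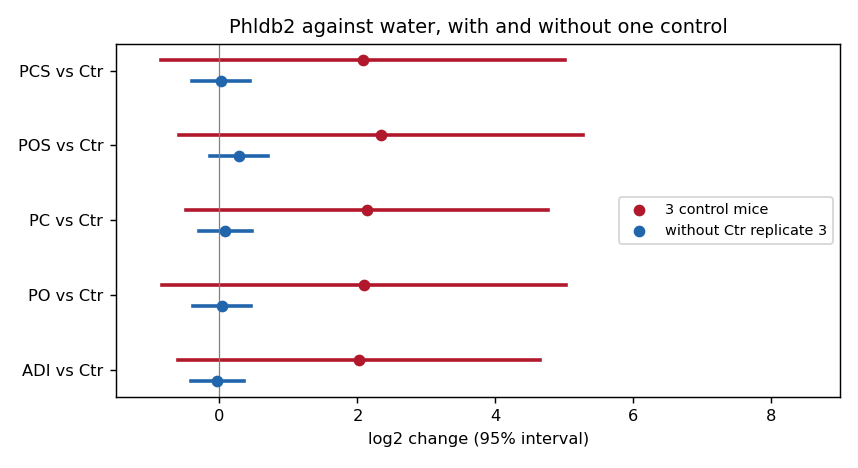
Log2 change of Phldb2 over water (horizontal axis) for each of the 5 treated groups, with its 95% interval; red points use all 3 control mice and blue points leave out Ctr replicate 3. The red points lie between 2.02 and 2.34 and the blue points between -0.03 and 0.29.

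The storage comparisons of Phldb2 do not set the stored mice against the controls. Its change was -0.06 ± 1.34 (SE) for PCS over PC and 0.25 ± 1.47 for POS over PO (limma, adjusted p 0.999 and 0.931). The POS over PO value was 0.099 without POS replicate 2, and the storage average, 0.09 with it, was 0.020. With the replicate number as a block, which brings the controls into these values, they were -0.63 and -0.61 (adjusted p 0.989 and 0.837), so POS over PO turned in sign. Without that block the SE still carried the low control through the shared spread, and without control replicate 3 the 95% interval narrowed to -0.44 to 0.32 for PCS over PC and to -0.17 to 0.67 for POS over PO.

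Synm was higher in all 4 mice fed stored potatoes than in all 11 others. Its scaled intensity was 4336 and 3292 in the PCS mice and 3340 and 4513 in the POS mice. It was 2340, 2639 and 2324 in the PC mice, 2351 and 2336 in the PO mice, 2404, 2683 and 2461 in the ADI mice, and 2366, 2589 and 2484 in the controls. The 11 mice without stored potatoes spanned 2324 to 2683, a narrow range that all stored mice exceeded. Such a separation of 4 arrays above 11 held for 1.87% of features. Synm is on the study's list of named genes, chosen on these same arrays, so this share gives no independent evidence.

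The log2 change of Synm over water was 0.61 ± 0.17 (SE) in PCS, a 1.52-fold difference, and 0.65 ± 0.17 in POS, a 1.57-fold difference. Neither passed over all features (limma, adjusted p 0.668 in PCS and 0.143 in POS). For PCS over PC it was 0.64 ± 0.17 and for POS over PO 0.73 ± 0.19 (adjusted p 0.815 and 0.175). The size in PCS depended on which mouse was kept. Over water it was 0.41 without PCS replicate 1 and 0.81 without PCS replicate 2, and over PC 0.44 and 0.84. Averaged over cultivation, stored over unstored flour gave 0.68 ± 0.13 (SE), with a 95% interval of 0.40 to 0.96 and an adjusted p of 0.0892. Without POS replicate 2 this average was 0.57 with an interval of 0.32 to 0.83, so most of the difference was present without that array. The POS change over water was 0.43 without POS replicate 2 and 0.86 without POS replicate 1, where it passed (adjusted p 0.00207) in a fit that called 41% of all features.

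Among the groups without stored potatoes Synm hardly varied. Its log2 change over water was -0.03 ± 0.15 (SE) in PC, -0.08 ± 0.17 in PO and 0.02 ± 0.15 in ADI (limma, adjusted p 1.00 each). The 95% interval was -0.31 to 0.36 in ADI and -0.36 to 0.31 in PC. In rising order the group means were 2344 ± 10.8 (SD, n = 2) in PO, 2434 ± 178 (SD, n = 3) in PC, 2480 ± 111 (SD, n = 3) in controls, 2516 ± 148 (SD, n = 3) in ADI, 3814 ± 738 (SD, n = 2) in PCS and 3926 ± 829 (SD, n = 2) in POS. Neighbours in this order overlapped except ADI and PCS.

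**Figure D2:**
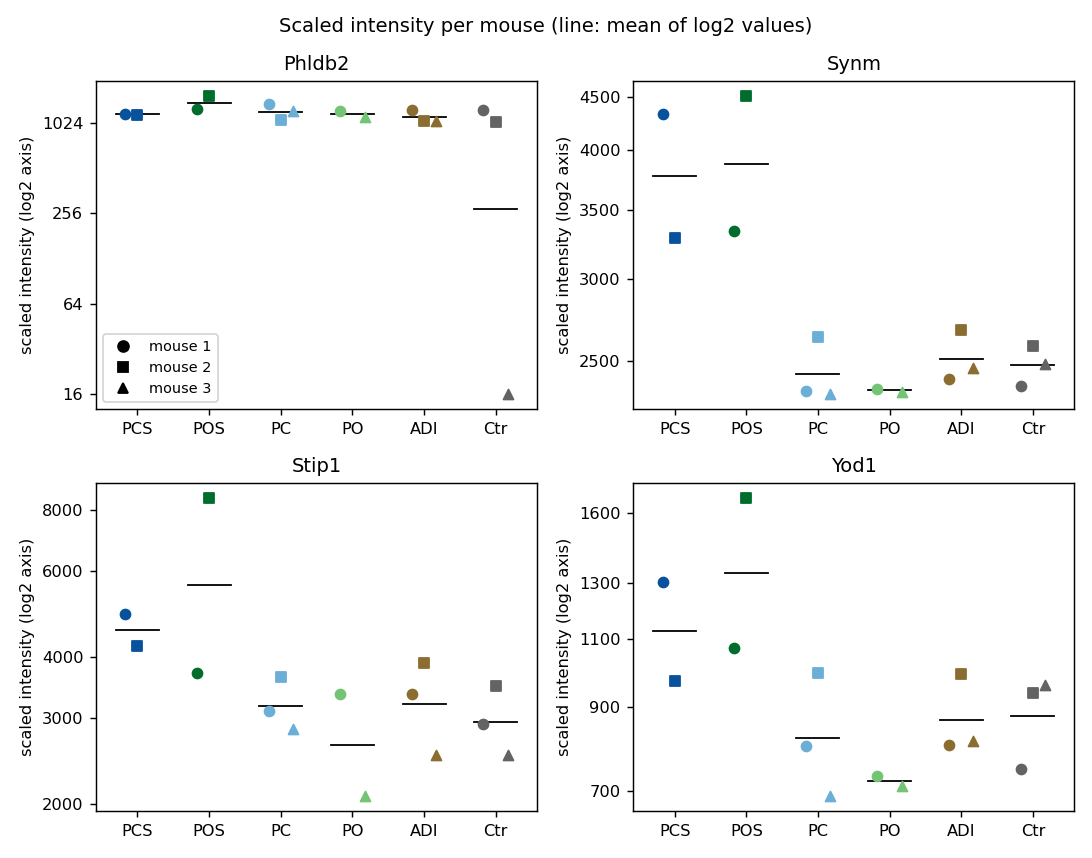
Scaled intensity (vertical axis, log2 scale, its range differing between panels) of the 4 genes in each mouse; the marker shape gives the replicate number and the line is the mean of log2 values per group. For Synm all PCS and POS mice lie above 2683, the highest of the other mice, and for Phldb2 only Ctr replicate 3, at 16, lies apart.

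Stip1 had a storage average above 0 with a wide spread between the POS mice. Its scaled intensity was 4912 and 4213 in the PCS mice and 3705 and 8492 in the POS mice. It was 3095, 3646 and 2853 in the PC mice, 3358 and 2075 in the PO mice, 3362, 3891 and 2523 in the ADI mice, and 2915, 3493 and 2514 in the controls. Both stored groups lay above every control, but POS replicate 1 lay below the highest ADI mouse, and POS replicate 2 stood far above the rest.

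The log2 change of Stip1 over water was 0.63 ± 0.33 (SE) in PCS and 0.93 ± 0.33 in POS (limma, adjusted p 0.753 and 0.143). For PCS over PC it was 0.52 ± 0.33 and for POS over PO 1.09 ± 0.36 (adjusted p 0.937 and 0.175). The average over cultivation was 0.80 ± 0.25 (SE), a 1.74-fold difference with a 95% interval of 0.27 to 1.34 and an adjusted p of 0.145. The POS values depended on which mouse was kept. Without POS replicate 2 the change was 0.33 for POS over water, 0.49 for POS over PO and 0.50 for the storage average, while without POS replicate 1 POS over water was 1.53 and the storage average 1.10, and both passed (limma, adjusted p 0.00212 and 0.00141), in a fit that called 41% and 36.6% of all features.

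In rising order the group means of Stip1 were 2717 ± 907 (SD, n = 2) in PO, 2974 ± 493 (SD, n = 3) in controls, 3198 ± 406 (SD, n = 3) in PC, 3259 ± 690 (SD, n = 3) in ADI, 4562 ± 494 (SD, n = 2) in PCS and 6099 ± 3385 (SD, n = 2) in POS. Neighbours overlapped except ADI and PCS. The change over water was 0.11 ± 0.30 (SE) in PC, -0.16 ± 0.33 in PO and 0.12 ± 0.30 in ADI (adjusted p 1.00 each), with a 95% interval of -0.54 to 0.76 in PC and -0.52 to 0.77 in ADI.

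Yod1 followed Synm in direction, less far from the other mice. Its scaled intensity was 1302 and 971.3 in the PCS mice and 1070 and 1672 in the POS mice. It was 801.6, 995.6 and 690.2 in the PC mice, 731.6 and 710.8 in the PO mice, 802.0, 992.6 and 811.7 in the ADI mice, and 747.2, 938.2 and 958.9 in the controls. PCS replicate 2 lay just above the highest control and below 1 PC and 1 ADI mouse, while the other 3 stored mice exceeded all 11 mice without stored potatoes.

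The log2 change of Yod1 over water was 0.36 ± 0.23 (SE) in PCS and 0.61 ± 0.23 in POS (limma, adjusted p 0.822 and 0.145). For PCS over PC it was 0.46 ± 0.23 and for POS over PO 0.89 ± 0.26 (adjusted p 0.920 and 0.175). The PCS values also depended on which mouse was kept: over water it was 0.15 without PCS replicate 1 and 0.57 without PCS replicate 2, and over PC 0.24 without PCS replicate 1. The average over cultivation was 0.67 ± 0.17 (SE), a 1.60-fold difference with a 95% interval of 0.30 to 1.05 and an adjusted p of 0.127. Without POS replicate 2 the change was 0.29 for POS over water, 0.57 for POS over PO and 0.51 for the storage average. Without POS replicate 1 POS over water was 0.93 and the storage average 0.83, and both passed (limma, adjusted p 0.0105 and 0.00202), and POS over PO, at 1.21, passed with 38.7% of features.

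Part of the POS over PO difference of Yod1 lay in the PO mice, which both had less Yod1 than any control. The PO change over water was -0.28 ± 0.23 (SE), and that of PC and ADI -0.10 ± 0.21 and -0.02 ± 0.21 (limma, adjusted p 1.00 each). Synm in PO also lay below every control, and groups of these sizes did not overlap for 19.5% of features in that comparison. The means of Yod1 were 721.2 ± 14.8 (SD, n = 2) in PO, 829.1 ± 155 (SD, n = 3) in PC, 868.8 ± 107 (SD, n = 3) in ADI, 881.4 ± 117 (SD, n = 3) in controls, 1137 ± 234 (SD, n = 2) in PCS and 1371 ± 426 (SD, n = 2) in POS, with an overlap of all neighbours except controls and PCS.

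**Figure D3:**
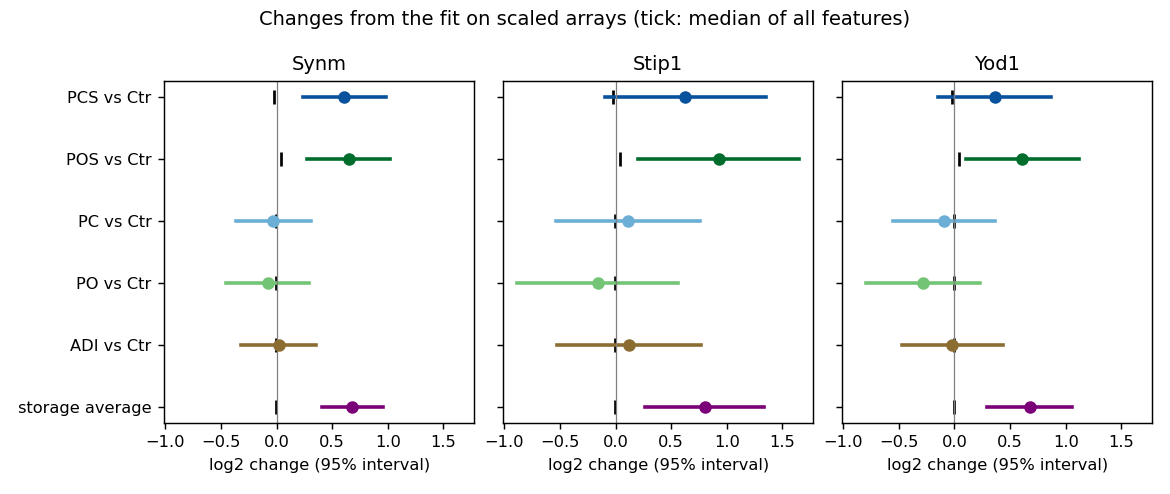
Log2 change (horizontal axis) of Synm, Stip1 and Yod1 over water in the 5 treated groups and for stored over unstored flour averaged over cultivation, with 95% intervals; black ticks mark the median of all features. The storage average lies at 0.68, 0.80 and 0.67 for the 3 genes, while PC, PO and ADI lie between -0.28 and 0.12.

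For Synm and Yod1 the direction of the storage difference rested on leaving out the 3 columns. With all 18 columns the storage average was -0.94 for Synm and -0.17 for Yod1, both turned in sign, as was Phldb2 at -1.18, and 0.65 for Stip1. Over water Synm was then -0.86 in PCS and -0.92 in POS, Yod1 -0.28 and -0.23, and Stip1 0.61 and 0.85, and none of these passed (limma). On the left-out arrays of PCS and POS (replicate 3 of each), Synm had a scaled intensity of 179 and 149 and Yod1 of 299 and 231, far below every array used, while Stip1 had 4397 and 4715, above every control. Both of these arrays correlated negatively with every array used and at r = 0.95 with each other. Whether their values are levels of the named genes was not tested.

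The counts of the 4 genes were read against all features, and with adjustment 0% of features passed in any of the 11 comparisons (limma). At an unadjusted p under 0.05, 1 of the 4 genes, Synm, was called in PCS over water and in PCS over PC, against 6.66% and 5.4% of features. Without PCS replicate 1 these changes fell to 0.41 and 0.44, as given above, and both calls depended on that mouse. In POS over water, POS over PO and the storage average it was 3 of 4, all but Phldb2, against 27.7%, 24.4% and 21.6% of features. In the same comparisons 45, 41 and 44 of the other 47 named genes were called. The 4 genes come from the study's table of 51 named genes, chosen on these same arrays, so their counts give no independent evidence. Without POS replicate 2, 1 of 4, Synm, was called in POS over water and in POS over PO, against 4.74% and 5.86% of features, and the same 3 of 4 in the storage average, against 14.6%. In that fit Synm and Stip1 were called in PCS over water, and Synm and Yod1 in PCS over PC, against 13.4% and 11.2% of features. The PCS changes were the same with and without POS replicate 2, at 0.63 for Stip1 over water and 0.46 for Yod1 over PC. The added calls of Stip1 and Yod1 thus came from the shared spread of the fit, not from a change in PCS. With all 15 arrays, in ADI, PC and PO over water, in PC over PO, in PCS over POS and in the interaction the number called was 0 of 4, against 1.58%, 1.37%, 2.29%, 1.36%, 13.5% and 4.09% of features.

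Synm, Stip1 and Yod1 lay above every control in PCS, and all 4 genes did in POS, where 13.2% and 15.4% of features did so. For Phldb2 the margin was narrow, with 1261 in POS replicate 1 against 1258 in control replicate 1. Synm and Stip1 lay above every PC mouse in PCS, as did 13.9% of features, and all 4 genes lay above both PO mice in POS, as did 23.2%. Stored mice as a whole exceeded every PC and PO mouse for Synm and Stip1, and for 4.69% of features. Between PCS and POS only Phldb2 did not overlap, being lower in PCS, and 30.3% of features had no overlap there. The limit of a list chosen on these same arrays holds for these counts too.

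Within the distribution of all changes with storage, Stip1 lay above 98.2% of features, Synm above 96.8%, Yod1 above 96.6% and Phldb2 above 61.4%. When POS replicate 2 was left out these shares were 95.4%, 97.0%, 95.7% and 56.0% in the same order. The median of the 4 genes was 0.68, and that of all features -0.01. The other 47 named genes had a median of 0.68 and 44 of them had positive values, but the study chose that list on these same arrays, so it gives no independent evidence. The 4 genes are part of that list, so the same limit holds for their shares. None of the genes fixed as further members of these pathways carried a name in the table: 0 of 20 for cortical anchoring of microtubules, 0 of 21 for intermediate filaments, 0 of 28 for Hsp70 and Hsp90 chaperones and 0 of 29 for p97 and deubiquitinases. They were not analysed here.

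**Figure D4:**
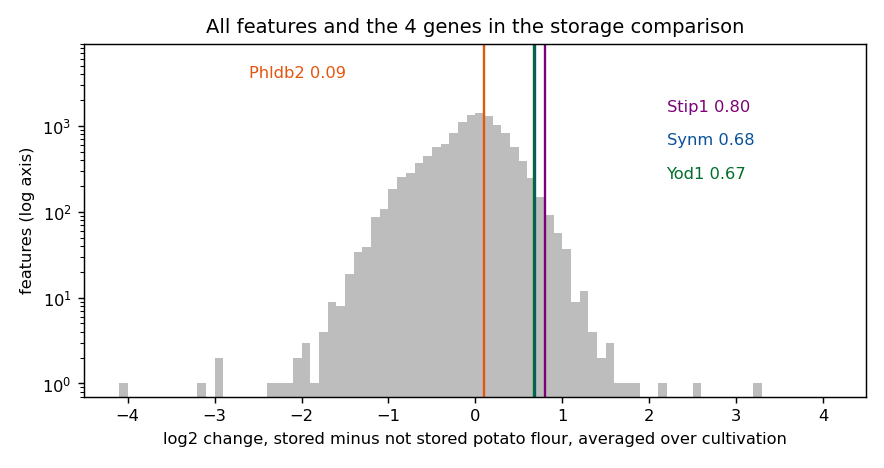
Number of features (vertical axis, log scale) by log2 change between stored and unstored flour, averaged over cultivation, with the 4 genes as vertical lines. Synm, Stip1 and Yod1 lie in the right flank at 0.68, 0.80 and 0.67, and Phldb2 near the centre at 0.09.

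On POS replicate 2 the features around the 4 genes were higher as well. There the 100 features nearest by number had a median log2 difference from the control mean of 0.57 around Stip1, 0.54 around Yod1, 0.24 around Synm and 0.39 around Phldb2. On POS replicate 1 these medians were 0.08, 0.03, 0.04 and -0.01, and on the PCS arrays they lay between -0.07 and 0.16. Stip1 itself differed from the control mean by 1.53 on POS replicate 2, Yod1 by 0.93 and Synm by 0.86. With such local medians subtracted from every array, an alternative chosen after the data had been seen, the storage average was 0.60 for Synm, 0.62 for Stip1 and 0.51 for Yod1 (limma, adjusted p 0.0634, 0.143 and 0.109). In POS over water it was 0.51, 0.59 and 0.31 in the same order, and Synm in PCS over water was 0.50.

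**Figure D5:**
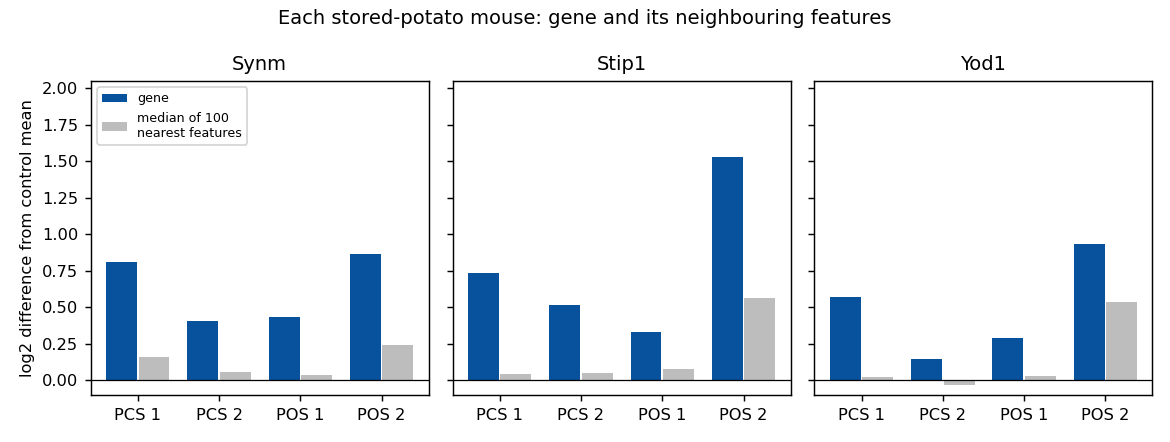
Log2 difference from the control mean (vertical axis) on each of the 4 stored-potato arrays, for the gene (blue bars) and for the median of the 100 features nearest to it by number (grey bars). The grey bars reach 0.57 on POS replicate 2 and stay at or below 0.16 on the other 3 arrays.

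Whether the genes passed in PCS and POS over water changed with the scaling of the arrays. The deposited intensity of Synm averaged 6169 ± 2086 (SD, n = 2) in PCS and 5401 ± 994 (SD, n = 2) in POS, against 2022 ± 268 (SD, n = 3) in controls. Unscaled, the median over the 12439 features was 0.94 higher in PCS and 0.81 higher in POS on the log2 scale. All 4 genes then passed in both comparisons (limma, largest adjusted p 0.0433 in PCS and 0.0460 in POS, both for Phldb2), as did 70.4% and 59.6% of all features. With quantile normalization none of the 4 passed in PCS or POS over water or in the storage average, and the storage average was 0.73 for Synm, 0.90 for Stip1 and 0.67 for Yod1.

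None of the 4 genes passed between conventional and organic flour. PC over PO gave 0.05 ± 0.17 (SE) for Synm, 0.27 ± 0.33 for Stip1, 0.18 ± 0.23 for Yod1 and 0.04 ± 1.34 for Phldb2 (limma, adjusted p 1.00 each). PCS over POS gave -0.04 ± 0.19 for Synm, -0.30 ± 0.36 for Stip1, -0.25 ± 0.26 for Yod1 and -0.26 ± 1.47 for Phldb2 (adjusted p 0.932, 0.687, 0.636 and 0.943). For Synm the 95% interval was -0.32 to 0.43 without storage and -0.45 to 0.37 with it, and for Stip1 with storage it was wide, at -1.09 to 0.49. The interaction, the storage difference of conventional minus that of organic flour, was -0.09 ± 0.25 for Synm, -0.57 ± 0.49 for Stip1, -0.44 ± 0.35 for Yod1 and -0.31 ± 1.99 for Phldb2 (adjusted p 0.916, 0.725, 0.706 and 0.972). These values rested on single mice. Without POS replicate 2, PCS over POS was 0.18 for Synm, 0.30 for Stip1, 0.072 for Yod1 and -0.11 for Phldb2, and the interaction 0.13, 0.027, -0.11 and -0.16 in the same order. Without POS replicate 1, PCS over POS was -0.90 for Stip1 and -0.57 for Yod1, and the interaction -1.17 and -0.76. PC over PO of Stip1 was 0.62 without PO replicate 1 and -0.078 without PO replicate 3.

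Mice with the same replicate number also tended to run together in the groups without stored potatoes. Replicate 2 was the highest of its group for Synm, Stip1 and Yod1 in both PC and ADI, and for Synm and Stip1 in the controls. Yod1 and Synm had r = 0.93 over these 11 arrays, Synm and Stip1 0.57, and Yod1 and Stip1 0.50, as a description of arrays that share replicate numbers. For Phldb2 it was replicate 1 that was the highest of its group, in PC, PO, ADI and the controls. Its r over the 11 arrays was -0.14 to Synm, -0.40 to Yod1 and 0.31 to Stip1, values that its single low control enters.

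Of the other named genes, those whose log2 values over the 15 arrays were most like each gene were named by their Pearson r, which the split between stored and other arrays enters. Synm was most like Mylk3, a myosin light chain kinase of heart muscle (r = 0.99, and 0.88 over the 11 arrays without stored potatoes), then the transcription factor gene Atf2 (0.97 and 0.86) and the proliferation marker Mki67 (0.96 and 0.68). Of all other features, 0% had a higher r to Synm than Mylk3. Mylk3 itself had 2638 and 2098 in the PCS mice, 2098 and 3155 in the POS mice and 1545, 1778 and 1556 in the controls.

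Stip1 was most like Traf5, an adaptor of TNF receptors (r = 0.95, and 0.84 over the 11 arrays), the neuronal calcium sensor gene Ncs1 (0.94 and 0.84) and Trav3, a T cell receptor segment (0.93 and 0.75). Yod1 was most like the phospholipid-binding Cpne4 (0.95 and 0.78), Atf2 (0.94 and 0.78) and Gatad2a of the NuRD complex (0.94 and 0.80). Phldb2 was most like Mzb1, a chaperone of the endoplasmic reticulum in B cells (r = 0.86, and 0.59 without control replicate 3), followed by Cish (0.55 and 0.45) and Hcls1 (0.44 and 0.37). Among all other features, 0.096% had a higher r to Phldb2 than Mzb1, 3.02% than Cish and 6.13% than Hcls1. Mzb1 was low on the same control array, with a scaled intensity of 717.6 there against 1550 and 1712 on the other 2 controls. It differed by far less than Phldb2, and the 2 features lie apart by number, at 18736 and 156.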

How the data were processed

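Brain RNA of 18 mice was measured on 1-colour Agilent arrays. The authors deposited intensity values of 12439 features per array, made with Agilent Feature Extraction per the submitters' processing notes. Version and background correction were not given in the sources used here, nor was how features were chosen. The values hold negatives, reach 65535 and differ in their percentiles between arrays, so they were read as background-subtracted and unscaled. The authors also deposited a table of 51 genes with log2 fold changes, set to 0 between 0.5-fold and 2-fold per the file headers. It was used only for names and feature numbers. No detection flags were used here.

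15 arrays were scaled to a common 75th percentile of 1132, floored at 16 and put on the log2 scale. Group means were fitted in limma 3.58.1 (R 4.3.3; lmFit, eBayes), with p-values adjusted by Benjamini-Hochberg over all features. 11 comparisons were made. The number of arrays limits the precision. The labels name separate mice. Residuals of same-numbered arrays correlated at r = 0.15 to 0.33 between controls and ADI or PC. Arrays with different numbers were not compared, so whether the numbers pair these groups was not tested. The main fit held no replicate block, so its SEs for ADI and PC over water do not use any such pairing. The genes named are the 4 members and, for each, the 3 most similar named genes by Pearson r. The members, lists and left-out arrays were chosen with earlier results of these data known. The fit was also run on simulated data with independent noise on each array. That simulation held neither the brightness difference of the stored arrays nor the local shifts on POS replicate 2, so it does not vouch for these results.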

Additional observations from a re-analysis of the deposited data

Results flagged for a closer look

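In the columns left out, some of the 4 genes had values above every control. In the column of PO replicate 2 the scaled intensity was 3687 for Synm, 3983 for Stip1 and 1111 for Yod1, against a highest control of 2589, 3493 and 958.9. Since that column is the average of 2 others (PO replicate 3, PCS replicate 1), these values hold no further mouse. Stip1 had 4397 in the column of PCS replicate 3 and 4715 in that of POS replicate 3, while Synm there had 179 and 149 and Yod1 299 and 231. Both columns correlate negatively with the arrays used and at r = 0.95 with each other, and the cause was not tested.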

How the results depend on the processing

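None of the 4 genes passed in any of the 11 comparisons, and outside leave-one-out only scaling changed that. The stored arrays are also the brightest, PCS, POS and PO have 2 mice each, and signal over background could not be judged without flags. Values far from 0 turned sign for Phldb2 with the replicate block and with no scaling, and, with the 3 left-out columns put back, for Synm and Yod1 in both stored groups and for Phldb2. Causes were not tested. With no scaling, features passed in these numbers, against 0: 8756 in PCS over Ctr, 7412 in POS over Ctr, 6562 in PCS over PC, 5347 in POS over PO and 8165 in the storage average. With no scaling, the sign turned for Yod1 (0.037 in ADI over Ctr, 0.10 in PC over Ctr), Synm (0.17 in PC over Ctr, 0.068 in PO over Ctr, 0.16 in PCS over POS, 0.059 in the interaction) and Phldb2 (0.71 in PCS over PC). With no scaling, limma calls were gained for Phldb2 (3.01 in PCS over Ctr, 3.08 in POS over Ctr), Synm (1.58 in PCS over Ctr, 1.41 in POS over Ctr, 1.40 in PCS over PC, 1.35 in POS over PO, 1.37 in the storage average), Stip1 (1.59 in PCS over Ctr, 1.69 in POS over Ctr, 1.28 in PCS over PC, 1.70 in POS over PO, 1.49 in the storage average) and Yod1 (1.33 in PCS over Ctr, 1.38 in POS over Ctr, 1.22 in PCS over PC, 1.51 in POS over PO, 1.37 in the storage average). With quantile normalization, features passed in these numbers, against 0: 4 in POS over Ctr, 3 in POS over PO and 2 in the storage average. With a common median, features passed in these numbers, against 0: 1 in POS over Ctr. With a floor of 64, features passed in these numbers, against 0: 2 in PCS over Ctr, 5 in POS over Ctr, 1 in PCS over PC and 4 in the storage average. Over features with a median of at least 64, features passed in these numbers, against 0: 1 in POS over Ctr. With array weights, features passed in these numbers, against 0: 2 in PC over Ctr and 5 in PCS over Ctr. With array weights, the sign turned for Yod1 (0.022 in ADI over Ctr). With a trend and robust prior, features passed in these numbers, against 0: 1 in PCS over Ctr, 5 in POS over Ctr and 1 in the storage average. With the replicate block, features passed in these numbers, against 0: 2 in PCS over Ctr. With the replicate block, the sign turned for Phldb2 (-0.61 in POS over PO, -0.62 in the storage average, -0.25 in PC over PO). With the replicate block and without POS replicate 2, features passed in these numbers, against 0: 53 in PCS over Ctr, 40 in PCS over PC and 68 in the storage average. With the replicate block and without POS replicate 2, the sign turned for Phldb2 (-0.75 in POS over PO, -0.69 in the storage average, -0.23 in PC over PO, 0.13 in the interaction), Synm (0.17 in PCS over POS, 0.13 in the interaction), Stip1 (0.25 in PCS over POS, 0.079 in the interaction) and Yod1 (0.0064 in PCS over POS). With all 18 columns, the sign turned for Synm (0.14 in PO over Ctr, -0.86 in PCS over Ctr, -0.92 in POS over Ctr, -0.83 in PCS over PC, -1.06 in POS over PO, -0.94 in the storage average, -0.17 in PC over PO, 0.063 in PCS over POS, 0.23 in the interaction), Stip1 (0.039 in PO over Ctr), Yod1 (-0.28 in PCS over Ctr, -0.23 in POS over Ctr, -0.18 in PCS over PC, -0.16 in POS over PO, -0.17 in the storage average, -0.023 in PC over PO) and Phldb2 (-1.12 in POS over PO, -1.18 in the storage average). With local medians removed, the sign turned for Synm (-0.025 in ADI over Ctr), Phldb2 (-0.034 in PC over PO) and Yod1 (0.029 in PCS over POS). The block changed no other call, and gave a storage average of 0.65 for Synm (limma, adjusted p 0.0842). Leaving out 1 array, the value of Phldb2 was -0.034 to 3.11 in ADI over Ctr, -0.15 to 0.026 in PCS over PC and -0.041 to 0.13 in PC over PO. Leaving out 1 array, the value of Synm was -0.027 to 0.052 in ADI over Ctr, -0.088 to 0.0039 in PC over Ctr, 0.43 to 0.86 in POS over Ctr, 0.51 to 0.95 in POS over PO, 0.57 to 0.79 in the storage average, -0.0075 to 0.084 in PC over PO, -0.26 to 0.18 in PCS over POS and -0.31 to 0.13 in the interaction. Leaving out 1 array, the value of Stip1 was -0.017 to 0.30 in ADI over Ctr, -0.0044 to 0.23 in PC over Ctr, -0.51 to 0.19 in PO over Ctr, 0.33 to 1.53 in POS over Ctr, 0.49 to 1.69 in POS over PO, 0.50 to 1.10 in the storage average, -0.078 to 0.62 in PC over PO, -0.90 to 0.30 in PCS over POS and -1.17 to 0.027 in the interaction. Leaving out 1 array, the value of Yod1 was -0.13 to 0.046 in ADI over Ctr, -0.24 to 0.028 in PC over Ctr, 0.29 to 0.93 in POS over Ctr, 0.57 to 1.21 in POS over PO, 0.51 to 0.83 in the storage average and -0.57 to 0.072 in PCS over POS. Leaving out 1 array, features passing numbered 0 to 1 in PC over Ctr, 0 to 2 in PO over Ctr, 0 to 2 in PCS over Ctr, 0 to 5104 in POS over Ctr, 0 to 2 in PCS over PC, 0 to 4812 in POS over PO, 0 to 4551 in the storage average, 0 to 2 in PC over PO, 0 to 3959 in PCS over POS and 0 to 2930 in the interaction. Without 1 array the interaction of Yod1 was -0.76 to -0.11 and that of Phldb2 -0.45 to -0.16, and Yod1 was 0.15 to 0.57 in PCS over Ctr and 0.24 to 0.67 in PCS over PC. The highest counts in POS comparisons, the storage average and the interaction came without POS replicate 1, where POS replicate 2 alone stands for POS.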
